A study of Trametes sanguinea with 15 samples.

Results

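Gene 174056 of the white-rot fungus Pycnoporus sanguineus CIRM-BRFM 1264 is annotated in the study as an aspartyl protease (KOG1339). It was taken by its protein ID, as 1 of 11724 genes tested and 1 of 14165 gene models counted, and it was picked with its values in these libraries already known. Its own levels and fold changes are therefore given as a description, with no test. The study's table of genes selected on aspen lists it in map node 30, with a gene model of 1544 bases. That table holds genes raised on aspen over maltose in libraries analysed here, so part of the gene's direction is fixed by that selection.

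Aspartyl proteases cut peptide bonds with a pair of aspartate residues in the active site and usually work best at acid pH, as pepsin does in animals. Fungi carry several such enzymes: some are secreted and digest proteins outside the hyphae, and others, such as proteinase A of baker's yeast, act in the vacuole. Plant biomass is poor in nitrogen, and secreted fungal proteases are known for releasing peptides and amino acids that the mycelium can take up.

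The strain was grown in liquid culture for 3 days, with 3 libraries for each of 5 carbon sources, and RNA was sequenced from the mycelium. The aspen cultures held 15 g/l of ground aspen wood (hardwood), the wheat straw cultures 15 g/l of ground straw (grass biomass), the xylan-galactomannan cultures 15 g/l of these hemicelluloses and the Avicel cultures 15 g/l of a crystalline cellulose, each with 2.5 g/l of maltose by the labels. The maltose cultures held 20 g/l of this readily used sugar. Each comparison with maltose thus differs in both the substrate and the maltose dose, and these cannot be told apart. The replicates are described as independent cultures on aspen, wheat straw, Avicel and maltose, and no such statement was found for xylan-galactomannan, so p-values measure the spread between these libraries, which may in that group be technical.

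Library totals ranged from 24209984 to 50428442 counts. In the 3 groups of widest spread, the library with the lowest mean correlation with the others of its group was xylan-galactomannan 2 (0.947), Avicel 1 (0.963) and maltose 3 (0.964), where the number names the replicate. Some of the values that these 3 libraries move are given with and without them, and the rest include them. Levels are CPM (each gene's count relative to the library total after TMM scaling, which removes differences in RNA composition between libraries). They are relative levels and not amounts per cell, so fewer cells with the transcript and less transcript per cell cannot be told apart.

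The aspartyl protease gene 174056 was most transcribed on aspen, at 313, 210 and 203 CPM, from 16263, 8960 and 8391 counts. On wheat straw it was at 62.3, 46.5 and 53.7 CPM. On xylan-galactomannan it was at 56.3, 34.6 and 68.0 CPM, so these libraries spanned those of wheat straw. On Avicel it was at 13.9, 33.9 and 36.4 CPM, and on maltose at 15.3, 9.04 and 16.95 CPM, the lowest from 267 counts. The 3 aspen libraries stood above all others, and the 3 maltose libraries and Avicel 1 stood lowest. The highest library was 34.6-fold above the lowest.

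**Figure D1:**
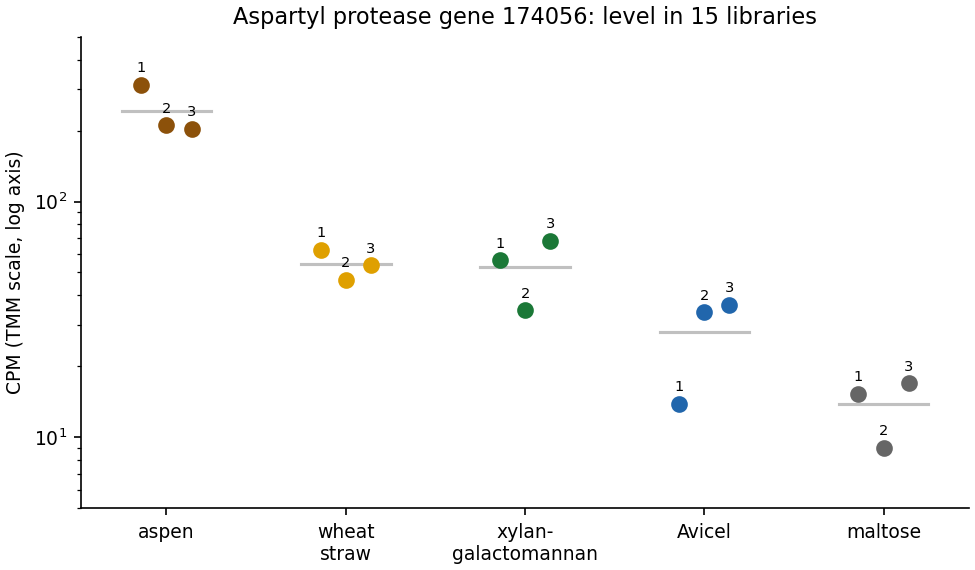
Level of gene 174056 in each of the 15 libraries, as CPM after TMM scaling on a log axis, by carbon source. Points are libraries with their replicate numbers and grey lines are means of 3 libraries. The aspen libraries lie between 203 and 313 CPM, and no other library exceeds 68.0 CPM.

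In order of level, the means were aspen (242 ± 61.5 CPM), wheat straw (54.2 ± 7.93), xylan-galactomannan (53.0 ± 16.9), Avicel (28.1 ± 12.4) and maltose (13.8 ± 4.18; SD, n = 3 each). Of these neighbours, aspen and wheat straw did not overlap. Wheat straw and xylan-galactomannan differed by less than their spread. The libraries of xylan-galactomannan overlapped those of Avicel, and those of Avicel overlapped maltose. Without library 1, the Avicel mean was 35.2 CPM and both remaining values (33.9 and 36.4 CPM) were above all maltose libraries. Without library 2, the xylan-galactomannan mean was 62.2 CPM (56.3 and 68.0), above both of those Avicel values, and without library 3 the maltose mean was 12.2 CPM.

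Gene 174056 was 17.6-fold higher on aspen than on maltose (log2 fold change 4.14 ± 0.40). Here and below, ± after a log2 fold change is an SE derived from the F statistic of the fit, as the log2 fold change over the square root of F. It was 3.93-fold higher on wheat straw (1.98 ± 0.37), 3.85-fold higher on xylan-galactomannan (1.94 ± 0.37) and 2.04-fold higher on Avicel (1.03 ± 0.36), each against the same maltose libraries. In the first 3 of these comparisons all libraries of the substrate lay above those of maltose, as held for 29%, 27.6% and 15.6% of all genes tested. In the comparison of Avicel with maltose the libraries overlapped (13.2% of all genes were without overlap in that direction), and the log2 fold change was 1.35 without Avicel 1. The fold change on aspen ranked 97 of 11724 genes, that on xylan-galactomannan 350, that on wheat straw 487 and that on Avicel 656.

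Against the other substrates, the gene was 4.47-fold higher on aspen than on wheat straw (log2 fold change 2.16 ± 0.37), 4.57-fold higher than on xylan-galactomannan (2.19 ± 0.37) and 8.62-fold higher than on Avicel (3.11 ± 0.38). These 3 comparisons share the aspen libraries. The first group lay wholly above the second in each, against 28.4%, 26.3% and 30.6% of all genes. Among the remaining substrates the fitted differences were smaller, with log2 fold changes of 0.95 ± 0.36 for wheat straw against Avicel, 0.92 ± 0.36 for xylan-galactomannan against Avicel and 0.03 ± 0.35 for wheat straw against xylan-galactomannan. Only the first of these 3 was without overlap, where 26.8% of all genes were in the same direction, against 20.1% for xylan-galactomannan over Avicel and 26.8% for wheat straw over xylan-galactomannan. Without the 3 libraries named above they were 0.59, 0.76 and −0.16, and that of wheat straw against maltose was 2.16.

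The lowest aspen library held 2.99 times the CPM of the highest library on any other carbon source. All 3 aspen libraries exceeded the other 12 in 1015 genes (8.66%), and the gap of gene 174056 ranked 11 of 11724. Per kilobase of gene model, the gene ranked 560, 1097 and 1020 among the genes tested in the aspen libraries, against 7012, 8056 and 6620 in the maltose libraries. The study took it from a node high on aspen but not on maltose or Avicel. Part of these ranks is therefore fixed by that selection. Gene 174056 thus stood far higher among the genes of the strain on aspen than on maltose. Its replicates were not tight: the SD of log2(CPM + 1) within groups, pooled over groups, was 0.481, against a median of 0.224 over the 1726 genes with a mean CPM within 0.5 of its own on the log2 scale, and 86.0% of these genes had a smaller SD.

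A second gene, 1682142, is annotated with the same KOG1339 and appears in the study's table of genes selected on wheat straw (map node 146, 1773 bases). It was at 72.3, 76.6 and 67.5 CPM on aspen and at 265, 241 and 262 CPM on wheat straw. On xylan-galactomannan it was at 249, 110 and 561 CPM, on Avicel at 126, 58.2 and 58.9 CPM, and on maltose at 21.4, 26.3 and 80.9 CPM. Where gene 174056 peaked on aspen, gene 1682142 was thus highest on wheat straw and xylan-galactomannan, with aspen levels inside the range of its Avicel libraries.

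The study listed gene 1682142 for its rise on wheat straw over maltose in libraries analysed here, so that direction is fixed by the selection. In the edgeR quasi-likelihood test gene 1682142 rose on wheat straw (log2 fold change 2.58 ± 0.59, adjusted p = 0.0054) and on xylan-galactomannan (2.84 ± 0.59, adjusted p = 0.0064) against maltose. Without maltose 3, the highest of its maltose libraries, these values were 3.43 (adjusted p = 0.0015) and 3.69 (adjusted p = 0.0019), and without xylan-galactomannan 3 that on xylan-galactomannan was 2.07 (adjusted p = 0.024). On aspen against maltose it was at 0.75 ± 0.56 (adjusted p = 0.29), which moved to 1.60 (adjusted p = 0.032) without maltose 3. On Avicel against maltose it was at 0.92 ± 0.56 (adjusted p = 0.35), and at 1.33 (adjusted p = 0.0055) without the 3 libraries named above. On aspen it was lower than on wheat straw (−1.83 ± 0.57, adjusted p = 0.029) and than on xylan-galactomannan (−2.09 ± 0.58, adjusted p = 0.010). The call against wheat straw was lost when any 1 of the 6 aspen and wheat straw libraries was left out (adjusted p 0.0593 to 0.0814), with log2 fold changes of −1.87 to −1.78. That against xylan-galactomannan was lost without xylan-galactomannan 3 (−1.32, adjusted p = 0.064). The rise on xylan-galactomannan was lost in a fit of the 6 libraries compared alone (adjusted p = 0.093).

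Per kilobase of gene model, the level of gene 174056 was 4.97, 3.15 and 3.46 times that of gene 1682142 in the aspen libraries. In the other 12 libraries gene 1682142 was the higher of the pair, by 3.70, 4.52 and 4.24 times on wheat straw, 3.86, 2.77 and 7.18 times on xylan-galactomannan, 7.91, 1.49 and 1.41 times on Avicel and 1.22, 2.53 and 4.16 times on maltose. The pair together reached 197 ± 40.1 CPM per kilobase on aspen, 179 ± 12.03 on wheat straw, 207 ± 140 on xylan-galactomannan, 63.8 ± 13.96 on Avicel and 33.1 ± 20.4 on maltose (SD, n = 3 each). The summed level on aspen and on wheat straw thus differed by less than the spread between the aspen libraries. The gene that supplied most of it was not the same. The study listed gene 174056 for aspen and gene 1682142 for wheat straw, in both cases from libraries analysed here, so part of this switch is fixed by that selection. Annotation was read only for genes in the study's tables, so the pair need not be all aspartyl protease genes of the strain.

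**Figure D2:**
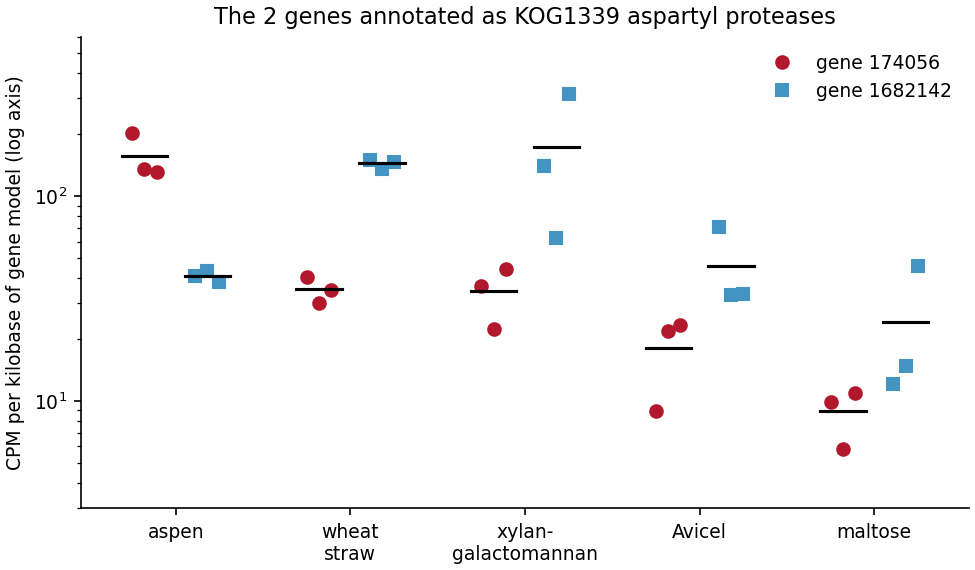
Level of genes 174056 and 1682142 in each library, as CPM per kilobase of gene model on a log axis, by carbon source. They are the genes that the study's tables annotate as KOG1339, and genes outside those tables were not searched. Points are libraries and black lines are means of 3. Gene 174056 (circles) is above gene 1682142 (squares) in the 3 aspen libraries and below it in the other 12.

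The study's tables annotate 5 peptidase genes besides 174056, and all 5 were tested. The study listed all but gene 1608570 as raised on aspen or wheat straw in libraries analysed here, from nodes not high on maltose or Avicel. Their direction is therefore not independent evidence. Gene 1608570 was listed for a map node with many secreted proteins, and the map was also built from these libraries. On aspen against maltose 4 of 5 rose and 0 fell, where 14.4% of all genes rose and 13.9% fell. On wheat straw against maltose 4 of 5 rose and 0 fell (9.8% and 8.15% of all genes). On Avicel 2 of 5 rose and 0 fell (3.66% and 4.44%), and on xylan-galactomannan 2 of 5 rose and 0 fell (5.87% and 2.79%). In the comparisons with 0 falling, edgeR also gave 0 negative values at an unadjusted p under 0.05 and DESeq2 called 0 lower. The median log2 fold changes of the 5 genes were 1.86, 2.58, 0.92 and 1.66 in these 4 comparisons, against medians from 0.00 to 0.04 over all genes tested.

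The serine carboxypeptidase gene 1608570, annotated as akin to lysosomal cathepsin A, which removes single residues from the carboxyl end of peptides, had the highest level per kilobase of the 6 on aspen. It averaged 579 ± 162 CPM on aspen, 608 ± 219 on wheat straw, 267 ± 129 on xylan-galactomannan, 155 ± 26.3 on Avicel and 60.7 ± 16.5 on maltose (SD, n = 3 each). It rose on all 4 substrates against maltose, by log2 fold changes of 3.25 ± 0.42 on aspen (adjusted p = 4.7e-05), 3.33 ± 0.42 on wheat straw (adjusted p = 9.2e-05), 2.14 ± 0.40 on xylan-galactomannan (adjusted p = 0.0029) and 1.35 ± 0.39 on Avicel (adjusted p = 0.038). The call on Avicel was lost without Avicel 2, Avicel 3, maltose 1 or maltose 2 (adjusted p 0.106 to 0.142), and the call on xylan-galactomannan in a fit of the 6 libraries alone (adjusted p = 0.052).

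The tripeptidyl-peptidase gene 1643269 belongs to an enzyme class that releases tripeptides from the amino end of peptides. It averaged 80.0 ± 9.68 CPM on aspen, 133 ± 65.1 on wheat straw, 12.1 ± 3.79 on xylan-galactomannan, 59.5 ± 42.5 on Avicel and 3.86 ± 1.97 on maltose (SD, n = 3 each). It rose 20.8-fold on aspen (log2 fold change 4.38 ± 0.68, adjusted p = 0.00022), 34.7-fold on wheat straw (5.12 ± 0.70, adjusted p = 0.00020) and 15.5-fold on Avicel (3.95 ± 0.67, adjusted p = 0.0018, and 4.98 without the 3 libraries named above) against maltose. On xylan-galactomannan the log2 fold change was 1.66 ± 0.62 (adjusted p = 0.085), which passed with DESeq2 (adjusted p = 0.029) and without the 3 libraries named above (adjusted p = 0.0055).

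Gene 1598804, annotated as a ubiquitin carboxyl-terminal hydrolase (KOG1870), an intracellular class that takes ubiquitin off proteins, rose on aspen (1.86 ± 0.35, adjusted p = 0.00095) and wheat straw (1.99 ± 0.36, adjusted p = 0.0012). Its log2 fold changes on Avicel and xylan-galactomannan were 0.37 (adjusted p = 0.57) and 0.36 (adjusted p = 0.52). Gene 1646990, annotated as a mitochondrial intermediate peptidase (KOG2090), which trims proteins imported into mitochondria, averaged 104 ± 19.5 CPM on aspen and 48.9 ± 11.3 CPM on maltose (SD, n = 3 each). It rose on aspen by 1.09 ± 0.21 (adjusted p = 0.00099), a value that was under the required 1 without aspen 2 (0.93) or maltose 2 (0.99). On the other 3 substrates its log2 fold changes were 0.12 to 0.28 and it was not called.

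**Figure D3:**
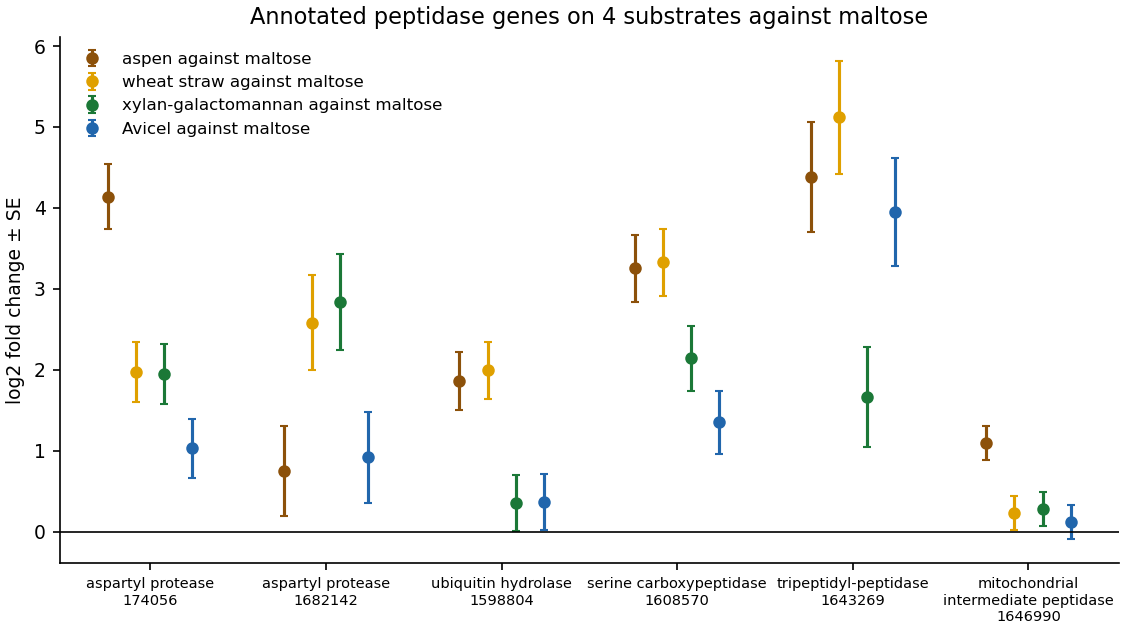
Log2 fold change of the 6 annotated peptidase genes on each substrate against maltose. Bars are the standard error derived from the F statistic of the fit, and the line at 0 marks no difference. The values of gene 174056 run from 4.14 on aspen to 1.03 on Avicel, and gene 1682142 is higher on wheat straw (2.58) and xylan-galactomannan (2.84) than on aspen (0.75).

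On aspen against wheat straw, 0 of the 5 other peptidase genes rose and 1, gene 1682142, fell, where 5.89% of all genes rose and 7.14% fell. Gene 1646990 had a positive log2 fold change of 0.86 ± 0.21 (adjusted p = 0.0082) that did not reach the required 1, as the only rise at an unadjusted p under 0.05, DESeq2 called 0 higher, and the others were between −0.74 and −0.07. On aspen against Avicel 2 of 5 rose and 0 fell (14.8% and 12.8% of all genes), namely genes 1608570 (1.90, adjusted p = 0.0016) and 1598804 (1.49, adjusted p = 0.0037). Gene 1646990 was at 0.97, and it passed 1 without aspen 1, aspen 3 or Avicel 3 (1.00 to 1.08). On aspen against xylan-galactomannan 3 of 5 rose and 1 fell (11.5% and 14.7% of all genes), and the 3 were genes 1643269 (2.72), 1598804 (1.504) and 1608570 (1.12). There the call of gene 1608570 was lost without xylan-galactomannan 2 (0.82, adjusted p = 0.053), aspen 1 (0.89, adjusted p = 0.11) or aspen 3 (1.13, adjusted p = 0.060), and gene 1646990, at 0.81, was called without xylan-galactomannan 2 (1.13, adjusted p = 0.00050). Between the other substrates, 3 of 5 rose and 0 fell on wheat straw against Avicel (7.68% and 4.91% of all genes), and 3 of 5 rose and 0 fell on wheat straw against xylan-galactomannan (9.6% and 11.9%). On xylan-galactomannan against Avicel 1 of 5 rose, gene 1682142 (1.92, adjusted p = 0.025), and 1 fell, gene 1643269 (−2.29, adjusted p = 0.015), where 9.1% of all genes rose and 4.53% fell, and in both genes the libraries of the groups overlapped. The rise of gene 1682142 was lost without Avicel 2, Avicel 3 or xylan-galactomannan 3 (1.15 to 1.74, adjusted p 0.091 to 0.14), and the fall of gene 1643269 without Avicel 2 or xylan-galactomannan 1 (adjusted p 0.063 and 0.058). Without the 3 libraries named above, they were at 2.73 and −3.07. On wheat straw, the call of gene 1682142 against Avicel was lost without Avicel 2, Avicel 3 or any 1 wheat straw library (adjusted p 0.088 to 0.14), and that of gene 1608570 against xylan-galactomannan without wheat straw 1 (0.85) or xylan-galactomannan 2 (0.88).

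Gene 174056 accounted for 14.6 ± 1.58% of the summed CPM per kilobase of the 6 peptidase genes on aspen, 3.23 ± 0.33% on wheat straw, 6.07 ± 1.10% on xylan-galactomannan, 5.34 ± 1.80% on Avicel and 5.97 ± 1.14% on maltose (SD, n = 3 each). Its share on aspen, at 12.8% or more in each library, was above that in each of the other 12 libraries, where it was at most 7.33%. The 6 genes are only those that the study's tables annotate as peptidases, and gene 174056 was picked with its values known. Part of its higher share on aspen is therefore fixed by that choice.

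The study's aspen table lists 7 further genes of map node 30. They are not the whole node. The study grouped genes by their levels on maltose, Avicel, aspen and wheat straw. It kept nodes high on aspen but not on maltose or Avicel, and listed only genes that also rose over maltose. These genes were therefore selected for high aspen values and lower maltose and Avicel values in the libraries used here. The counts describe them, part of their direction is fixed by that selection, and the shares over all genes are given for scale only. On xylan-galactomannan against maltose 6 of these 7 genes rose and 0 fell (5.87% and 2.79% of all genes), with a median log2 fold change of 2.19, against 0.04 over all genes and 1.94 for gene 174056. The exception, gene 1609244, was at 1.29 ± 0.51 (adjusted p = 0.10, and 0.0018 without the 3 libraries named above), and gene 1596407, at 4.48, was at 2.68 without xylan-galactomannan 2. On aspen against xylan-galactomannan 5 of 7 rose and 0 fell (11.5% and 14.7% of all genes), with a median of 2.02, against −0.02 over all genes and 2.19 for gene 174056.

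Of these genes, 1656427, annotated as a sorbitol dehydrogenase (KOG0024), an enzyme class that oxidises sugar alcohols, was nearest to gene 174056. It was at 418, 234 and 224 CPM on aspen, 86.8, 39.9 and 40.8 CPM on wheat straw, 62.2, 75.7 and 77.7 CPM on xylan-galactomannan, 27.9, 37.9 and 39.2 CPM on Avicel and 16.9, 6.81 and 8.40 CPM on maltose. As with gene 174056, aspen 1 was the highest library and Avicel 1 the lowest of the Avicel libraries. Gene 1583815, annotated to the arginase and agmatinase family (KOG2964), which splits guanidino compounds into urea and an amine, averaged 145 ± 22.6 CPM on aspen, 96.5 ± 24.9 on wheat straw, 24.9 ± 6.33 on xylan-galactomannan, 34.7 ± 17.8 on Avicel and 5.53 ± 0.897 on maltose (SD, n = 3 each).

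Gene 1592100, a carbohydrate esterase of family CE16, which holds acetylesterases, departed from gene 174056 on the hemicelluloses. It averaged 169 ± 70.5 CPM on aspen and 179 ± 54.4 CPM on xylan-galactomannan (SD, n = 3 each), with a log2 fold change of −0.08 ± 0.47 (adjusted p = 0.90). Gene 1596407, with no function annotated, was at 685, 342 and 272 CPM on aspen and at 29.8, 292 and 42.4 CPM on xylan-galactomannan. Its log2 fold change was 1.83 ± 0.84 (adjusted p = 0.091), and 3.64 (adjusted p = 0.0026) without library 2 of xylan-galactomannan. DESeq2 also called it (adjusted p = 0.038).

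Among all 11723 other genes tested, the pattern most like that of gene 174056, by Pearson's r of log2(CPM + 1) over the 15 libraries, belonged to gene 1594299 (r = 0.970), followed by 1679603 (0.969), 1754976 (0.964), 1592467 (0.963) and 1681133 (0.962). The next were 1583608 (0.962), 1589131 (0.955), 1676097 (0.953), 1656427 (0.951) and 1626448 (0.948). These correlations are descriptions over libraries that fall into 5 groups and share their scaling, and the genes were ranked on them. The median r over all genes was 0.03, and 67 genes were above 0.9. Some of the genes named were weakly transcribed, where the added 1 CPM weighs on r. Gene 1754976 averaged 0.113 CPM on maltose and 3.27 on aspen, and gene 1589131 1.07 and 7.40.

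Of these 10 genes, 2 appear in the study's tables. One is the sorbitol dehydrogenase gene 1656427 of the same node. The other is gene 1592467, annotated to the short-chain dehydrogenases (KOG1208) in map node 165, which averaged 190 ± 46.4 CPM on aspen, 101 ± 17.2 on wheat straw, 68.5 ± 10.3 on xylan-galactomannan, 54.3 ± 15.5 on Avicel and 26.1 ± 4.08 on maltose (SD, n = 3 each). The most alike gene, 1594299, averaged 72.5 ± 8.24 CPM on aspen, 27.8 ± 5.19 on wheat straw, 16.6 ± 2.12 on xylan-galactomannan, 11.9 ± 2.83 on Avicel and 7.14 ± 1.36 on maltose. The r by which these 10 genes were chosen includes differences within groups, and the correlations between deviations from the group means alone were 0.522 to 0.879.

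The patterns most opposite were those of genes 1693495 (r = −0.961), 1587092 (−0.959) and 1683459 (−0.949), none of which appears in the study's tables. Gene 1587092 averaged 19.4 ± 1.75 CPM on aspen, 47.8 ± 1.74 on wheat straw, 37.9 ± 4.84 on xylan-galactomannan, 82.6 ± 32.4 on Avicel and 97.4 ± 8.09 on maltose (SD, n = 3 each).

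**Figure D4:**
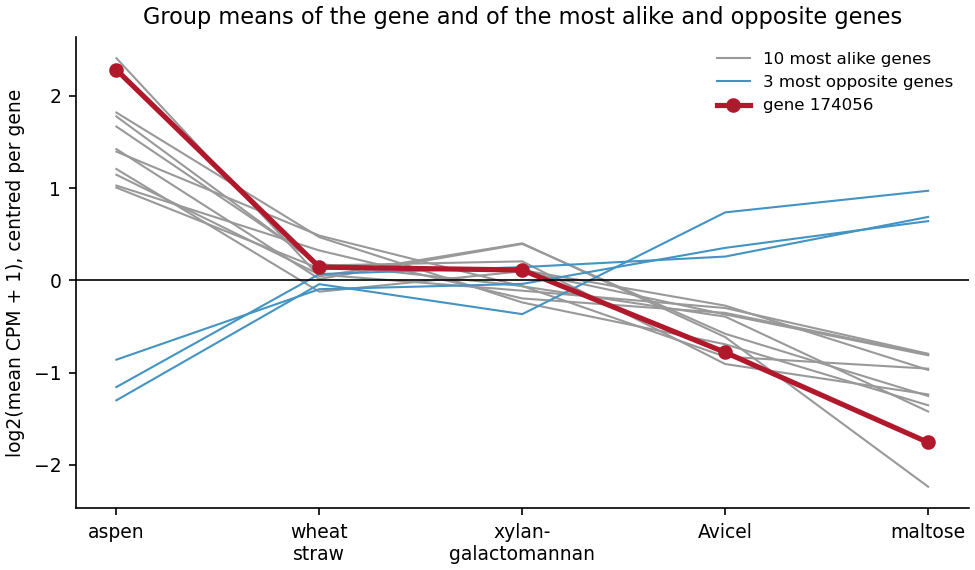
Group means of gene 174056 (red), of the 10 genes with the highest correlation with it (grey) and of the 3 with the lowest (blue), as log2 of mean CPM + 1 with the mean of each gene's 5 values set to 0, by carbon source. The grey lines are highest on aspen and lowest on maltose, as is the red one, and the blue lines run the other way.

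The other named genes were less alike. Among the 7 listed genes of node 30, r ran from 0.746 (gene 1592100) to 0.951, and among the peptidase genes it was 0.845 for the serine carboxypeptidase 1608570, 0.754 for 1646990, 0.703 for 1598804 and 0.643 for 1643269. The second aspartyl protease gene 1682142 had the lowest r of them, at 0.274, and ranked 4195 of 11723. The 90 other genes of the study's aspen table, which were chosen for high levels on aspen, had a median r of 0.761.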

How the data were processed

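The authors sequenced RNA for 15 libraries as 150 bp paired reads, trimmed the reads, aligned them with TopHat2 and deposited raw counts per gene model from HTSeq. For tool versions and strand setting: not given in the sources used here. A normalised signal, also deposited, equals the counts over 1 size factor per library (DESeq 1.5 by the labels). The deposited gene model lengths (other values, in bases) set levels per kilobase. All sample columns matched a sample (0 left over). Library totals were 24209984 to 50428442 counts. Between replicates the median chi-square per gene was 2.87 to 51.9, so no pair matched within sampling noise.

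Counts were fitted with edgeR 4.0.16 in R 4.3.3, using filterByExpr (11724 genes), TMM factors of 0.74 to 1.31, a mean per group and a robust quasi-likelihood fit of all 15 libraries. Genes were called where the absolute log2 fold change exceeded 1 and the p-value, adjusted by Benjamini-Hochberg over all genes in each of 10 contrasts, was below 0.05. Alternatives were median-of-ratios size factors, library totals alone, no filter, DESeq2 1.42.0, 6 libraries only, a replicate block, counts divided by 2 (since 66.5 to 76.5% of counts from 1 to 20 were even) and leaving out libraries. The fit was tested on simulated data.

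Named genes were the aspartyl protease, the other peptidases annotated in the study's tables, the other genes listed for its map node in the aspen table, and the 10 most and 3 least correlated genes on log2(CPM + 1). The gene and the lists were chosen with earlier results of these data known. No sequence of these genes was used here.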

Additional observations from a re-analysis of the deposited data

How the results depend on the processing

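Over 14 alternatives, the log2 fold change of gene 174056 against maltose lay between 3.91 and 4.54 for aspen, between 1.75 and 2.27 for wheat straw, between 1.72 and 2.32 for xylan-galactomannan and between 0.80 and 1.57 for Avicel. It was positive throughout in the other comparisons too, except for wheat straw against xylan-galactomannan (−0.16 to 0.40). Library totals alone, without TMM, moved the median of all genes on aspen by 0.38 against maltose, 0.48 against Avicel, 0.42 against xylan-galactomannan and 0.11 against wheat straw, and by 0.29 on wheat straw against maltose. Gene 174056 was then at 4.54, 3.52, 2.66, 2.26 and 2.27, and genes that rose and fell numbered 2619 and 914 on aspen against maltose (1684 and 1630 with TMM), 3113 and 725 against Avicel (1730 and 1504), 2641 and 904 against xylan-galactomannan (1349 and 1726), and on wheat straw against maltose 1687 and 608 (1149 and 956).

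Fits of the 6 libraries compared alone called 541 genes on Avicel and 444 on xylan-galactomannan against maltose, in place of 950 and 1015, and edgeR then called 0 peptidase genes on xylan-galactomannan in place of 2 (3 at an unadjusted p under 0.05, and 3 with DESeq2 on all libraries). Leaving out xylan-galactomannan 2, Avicel 1 and maltose 3 together, chosen after seeing the data, gave 1525 and 1948 genes. With 1 library left out, the peptidase genes called were 0 to 0 on aspen against wheat straw, in place of 1, and 1 to 2 on Avicel against maltose. Of the 10 most alike genes, 5 stayed with Spearman's correlation, and 5 to 10 with 1 library left out, fewest without xylan-galactomannan 2. The cause was not tested.

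The replicate numbers did not pair the samples: 3 of 30 same-numbered pairs correlated above 0.1 in their deviations (−0.45 to 0.48). With the replicate number as a block, gene 174056 was at 4.17, 2.005, 1.94 and 1.08 on aspen, wheat straw, xylan-galactomannan and Avicel against maltose, and among the peptidase genes 1643269 on xylan-galactomannan was then called (adjusted p = 0.047).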

Other observations

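Avicel 1, the library with the lowest level of gene 174056 in its group, was the lowest of the 3 Avicel libraries in 44.2% of all genes tested, in all 7 further genes of map node 30 listed in the study's aspen table and in 3 of the 5 other peptidase genes. Its CPM was at most 0.5 times that of each other Avicel library in 8.71% of all genes, in 6 of these 7 genes and in 2 of the 5 peptidase genes, as it was for gene 174056. The study grouped the genes of node 30 by levels that include those on Avicel. Part of their likeness to gene 174056 here is therefore fixed by that grouping, and the share over all genes is given for scale only. Gene 1682142, the second aspartyl protease gene, ran the other way, at 126 CPM in Avicel 1 against 58.2 and 58.9 CPM in the other libraries. Without this library the mean of gene 174056 on Avicel was 35.2 CPM, against 28.1 CPM with it.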
